A study of Mus musculus with 4 samples.

Results

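The 43 genes described here encode the DNA replication machinery, from origin recognition to nucleotide supply. They were chosen by gene symbol among the 23420 genes with a score in the deposited tables. All 43 had at least 100 reads over the 12 replicates, between 565 and 23817 in total, so that all were among the 16090 genes tested. The cells came from cochleae of Atoh1-GFP transgenic mice on a CD1 background at postnatal day 1, in which an Atoh1 enhancer drives the green fluorescent protein in hair cells. All cochleae were kept overnight as organ cultures at 5% CO2 and 5% O2. Part of them then received 0.5 mM gentamicin, an aminoglycoside antibiotic that kills hair cells, for 3 h, and the others served as untreated controls. Dissociated cells were sorted by flow cytometry into GFP-positive hair cells, called HC, and GFP-negative non-hair cells, called NHC. Cells with low GFP were gated out because inner phalangeal cells can express some of the reporter. NHC are a mixture of supporting cells, other cochlear epithelium and surrounding tissue. The 4 groups were control HC, gentamicin HC, control NHC and gentamicin NHC, with 3 replicates of polyadenylated RNA in each, and each replicate was a pool of sorted cells. The study calls these biological replicates, and the p-values measure the spread between them.

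Replication starts where the origin recognition complex, built from Orc1 to Orc6, sits on DNA. Cdc6 and Cdt1 then load the ring of Mcm2 to Mcm7, which becomes the active helicase once Cdc45 and the GINS complex join it. Polymerase alpha with primase starts each strand, polymerases epsilon and delta extend it, and the clamp Pcna, opened by the Rfc clamp loader, holds them on the template. Rpa coats single-stranded DNA, while Fen1 and Lig1 remove primer flaps and seal the nicks. Hair cells leave the cell cycle before birth and do not divide again, whereas part of the tissue around them is still growing at this age. Many genes of this machinery are known targets of E2F transcription factors, which drive entry into S phase.

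The promoters were examined first, because they show what these genes share beyond their function. RefSeq promoter windows of 300 bases on GRCm38.p6, from 250 bases before to 50 after the start site, were matched by symbol for 36 of the 43 genes. No window was matched for Gins1, Gins2, Gins4, Rfc2, Mcm4, Prim2 and Pole. An E2F-like motif, searched on both strands as TTTCCCGC, TTTGGCGC, TTTCGCGC or TTTGCCGC with overlaps allowed, was found in 14 of the 36, or 38.9%. The same letters occurred in the promoters of 2.60% of 27025 genes and of 4.27% of the 11660 tested genes with a window. The 14 genes were Mcm3, Mcm5, Mcm6, Mcm7, Orc1, Orc3, Cdc6, Cdt1, Gins3, Rfc3, Pola1, Pold1, Pole2 and Lig1. The box CCAAT, the core letters read by the factor NF-Y, was in 23 of the 36, or 63.9%, against 41.1% of all genes and 42.3% of the tested genes. The short CHR-like motifs TTTGAA and TTTAAA, known from genes of mitosis, were in 9 of the 36, or 25%, against 30.6% of all genes and 22.5% of the tested genes.

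Promoters of 4 genes are shown 5′ to 3′, with E2F-like and CCAAT matches in capitals. A match on the opposite strand appears as its reverse complement, and overlapping matches run together. Mcm3 had the largest excess in NHC over HC, Cdc6 the largest excess in HC, Mcm6 was the gene called in treated NHC, and Orc4 had the smallest p in treated HC. Their windows lay at chr1:20820263-20820562, chr11:98907901-98908200, chr1:128359656-128359955 and chr2:48950185-48950484, on the minus strand for all but Cdc6.
Mcm3: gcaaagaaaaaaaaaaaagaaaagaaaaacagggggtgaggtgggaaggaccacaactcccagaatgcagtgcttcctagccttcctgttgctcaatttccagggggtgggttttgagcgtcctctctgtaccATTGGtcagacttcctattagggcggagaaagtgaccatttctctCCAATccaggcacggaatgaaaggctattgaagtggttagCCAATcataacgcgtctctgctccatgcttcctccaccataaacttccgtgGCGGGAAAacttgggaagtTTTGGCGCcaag
Cdc6: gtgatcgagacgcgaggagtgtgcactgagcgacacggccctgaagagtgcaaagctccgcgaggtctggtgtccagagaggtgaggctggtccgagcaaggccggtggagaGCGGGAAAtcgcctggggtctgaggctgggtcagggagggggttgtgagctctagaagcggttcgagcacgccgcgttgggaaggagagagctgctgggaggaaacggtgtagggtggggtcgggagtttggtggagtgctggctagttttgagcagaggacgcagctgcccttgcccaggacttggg
Mcm6: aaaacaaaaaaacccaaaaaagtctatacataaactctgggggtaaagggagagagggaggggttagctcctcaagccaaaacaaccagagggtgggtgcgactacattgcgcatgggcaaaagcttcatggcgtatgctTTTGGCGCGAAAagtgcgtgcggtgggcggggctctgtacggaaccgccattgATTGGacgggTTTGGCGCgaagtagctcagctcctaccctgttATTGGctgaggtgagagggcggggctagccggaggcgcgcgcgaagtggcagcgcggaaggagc
Orc4: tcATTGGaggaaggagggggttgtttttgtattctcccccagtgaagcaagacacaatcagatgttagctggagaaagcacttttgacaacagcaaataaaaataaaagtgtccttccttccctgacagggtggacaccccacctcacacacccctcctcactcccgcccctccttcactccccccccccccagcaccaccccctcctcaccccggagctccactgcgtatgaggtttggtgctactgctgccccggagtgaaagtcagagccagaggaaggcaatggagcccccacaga
The Mcm3 window held 2 E2F-like matches, that of Mcm6 held 3, that of Cdc6 held 1, and that of Orc4 held 0. Orc4 has 3 start sites in RefSeq. Its window shown is the one nearest the start of the gene in GENCODE, and the other windows of Orc4 held no E2F-like match either.

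The values are normalized read scores, which are reads on the gene scaled per replicate with 1 added, so that a score of 1 means no read. Between 22400412 and 28151792 reads were recovered per replicate from these scores. In control HC, 10 hair cell markers, Atoh1 and Myo7a among them, summed to 12215–12626 score units above 1, against 271–274 in control NHC, and 0 of the 10 were at 0 in all replicates of a group. Supporting cell markers, Sox2 and Prox1 among them, did not separate the populations, at 2047–2493 in control HC and 1240–2390 in control NHC. From mesenchyme, endothelium and Schwann cell markers, RNA of other cells was estimated at 6.33%, 10.8% and 6.84% of the 3 control HC replicates and at 3.82%, 3.38% and 4.40% of the treated ones. The lists differed in this estimate, at 3.71–7.97% by mesenchyme, 9.85–14.7% by endothelium and 32.5–40.2% by Schwann cell markers in control HC, and 2.08–2.55%, 5.49–7.50% and 19.3–31.5% in treated HC. Treated NHC replicate 2 stood apart from the other NHC replicates in the replication genes, and most NHC counts and medians are also given without it.

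Most of the machinery was expressed at a lower level in hair cells than in the surrounding cells without drug. Of the 43 genes, 35 were higher in control NHC than in control HC at an adjusted p under 0.05, 2 were lower, and 6 did not pass. This comparison separated most genes of the genome, since 74.0% of the tested genes passed, with 42.1% of the tested genes higher in NHC and 31.9% lower. The replication genes that passed were 86.0% of the 43, and those higher in NHC were 81.4%. The median log2 difference was 1.23 over the 43 genes and 0.12 over all genes tested, and with median of ratios scaling these values were 1.12 and 0.01. By role, the median was 2.07 for nucleotide supply, 1.77 for the helicase, 1.19 for flap and nick processing, 1.17 for polymerases and primase, 0.62 for clamp, loader and Rpa, and -0.08 for origin recognition and loading. The 3 replicates of each group did not overlap for 39 of the 43 genes, 37 higher and 2 lower in NHC, against 79.1% of all genes, 44.6% higher and 34.5% lower. Since bulk samples were sequenced, fewer dividing cells and less RNA per cell cannot be told apart.

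**Figure D1:**
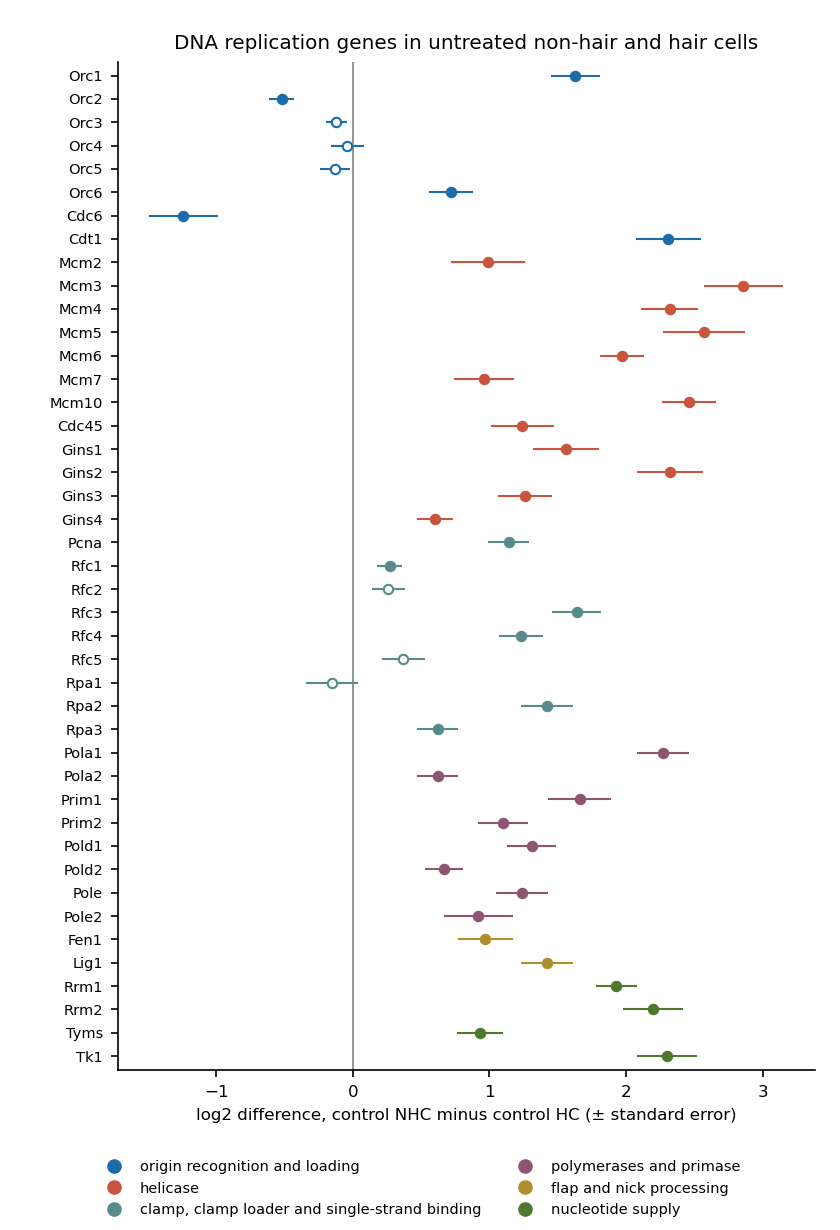
Log2 difference of the normalized read score between control NHC and control HC for each of the 43 genes, with its standard error (limma, 3 replicates a group), coloured by role. Filled points passed an adjusted p of 0.05: all 12 helicase genes lie to the right of 0, while Orc2 and Cdc6 lie to the left.

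All 12 helicase genes were higher in NHC, with log2 differences from 0.60 for Gins4 to 2.86 for Mcm3. Mcm3 scored 4.08, 5.23 and 3.63 in control HC and 41.3, 28.6 and 25.4 in control NHC (log2 difference 2.86, standard error 0.29, limma adjusted p = 3.03e-06). Mcm5 scored 4.56, 4.196 and 4.04 in control HC and 31.2, 22.7 and 22.7 in control NHC (log2 difference 2.57, standard error 0.30, adjusted p = 9.12e-06). Both ring subunits were near the bottom of the scale in every HC replicate. Mcm2 differed less, with 19.4, 16.9 and 16.3 in control HC and 43.1, 30.6 and 32.01 in control NHC (log2 difference 0.99, standard error 0.27, adjusted p = 0.00545). Mcm7 was at 25.8, 26.1 and 25.4 in control HC and 64.9, 45.9 and 41.9 in control NHC (log2 difference 0.96, standard error 0.22, adjusted p = 0.0017). The HC replicates of Mcm7 lay within a narrow range, and all were below the lowest NHC replicate. Mcm10, which helps to activate the helicase, rested on few reads in HC, with scores of 1.17, 1.56 and 1.23 in control HC and 8.11, 7.46 and 6.25 in control NHC and as few as 4 reads in a control HC replicate. Its log2 difference was 2.46 with the offset of 1 and 4.02 with an offset of 0.1, since an added constant shrinks the differences of low genes.

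Origin recognition and loading was mixed, with 3 of 8 genes higher in NHC, 2 lower and 3 that did not pass. These counts were near the shares of all tested genes, 42.1% higher and 31.9% lower. Orc3 scored 72.4, 70.6 and 77.2 in control HC and 73.1, 66.1 and 64.4 in control NHC (log2 difference -0.12, standard error 0.08, limma adjusted p = 0.226). Orc4 was at 38.04, 38.9 and 45.5 in control HC and 35.1, 42.5 and 41.3 in control NHC (log2 difference -0.04, standard error 0.12, adjusted p = 0.741). Orc5 was at 26.2, 24.8 and 25.8 in control HC and 25.3, 23.6 and 21.4 in control NHC (log2 difference -0.13, standard error 0.11, adjusted p = 0.29). For these 3 subunits the populations overlapped. Orc2 was higher in HC, with 41.04, 35.8 and 39.02 in control HC and 29.2, 25.04 and 26.6 in control NHC (log2 difference -0.52, standard error 0.09, adjusted p = 2.55e-04). Orc6 was higher in NHC, with 13.4, 13.4 and 11.8 in control HC and 24.8, 20.1 and 19.2 in control NHC (log2 difference 0.72, standard error 0.16, adjusted p = 0.00186). Neither overlapped between the populations, so that subunits of a single complex differed in opposite directions. Orc1, the subunit whose level cycles in dividing cells, was close to the detection limit in HC, with 1.22, 1.26 and 1.23 in control HC and 4.51, 3.54 and 3.47 in control NHC and as few as 5 reads in a control HC replicate. Its difference of 1.63 on the log2 scale (adjusted p = 6.02e-06) became 3.12 with an offset of 0.1.

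The loading factors Cdc6 and Cdt1, which act together at origins, also differed in opposite directions. Cdc6 scored 14.3, 11.8 and 11.97 in control HC and 6.79, 4.41 and 5.13 in control NHC (log2 difference -1.24, standard error 0.25, limma adjusted p = 8.05e-04). Cdt1 scored 3.08, 4.38 and 2.66 in control HC and 18.1, 17.3 and 13.8 in control NHC (log2 difference 2.31, standard error 0.24, adjusted p = 3.71e-06). For neither gene did the populations overlap.

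The genes that extend and finish the strands were higher in NHC to differing degrees. All 8 polymerase and primase genes were higher, from 0.62 on the log2 scale for Pola2 to 2.27 for Pola1. Pola1, the catalytic subunit of polymerase alpha, scored 3.91, 3.48 and 4.41 in control HC and 20.5, 19.1 and 17.3 in control NHC (limma adjusted p = 5.61e-07). Of the pair that finishes Okazaki fragments, Lig1 differed by 1.42 and Fen1 by 0.97 on the log2 scale. Reads of Fen1 cannot be assigned cleanly, as 84.1% of its exonic bases in GENCODE are shared with Gm10143 and Tmem258 on the other strand, and the same holds for 70.7% of Gins2 with Gse1. All 4 nucleotide supply genes were higher as well. Rrm2, the regulated subunit of ribonucleotide reductase, was at 3.35, 3.78 and 3.63 in control HC and 18.4, 15.2 and 15.98 in control NHC (log2 difference 2.20, standard error 0.22, adjusted p = 2.86e-06). Its partner Rrm1 was at 14.7, 14.2 and 13.9 in control HC and 60.1, 52.97 and 50.3 in control NHC (log2 difference 1.93, standard error 0.15, adjusted p = 2.59e-07). Thymidine kinase Tk1 differed by 2.30 and thymidylate synthase Tyms by 0.93 on the log2 scale.

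Of the clamp, loader and single-strand binding genes, 6 of 9 were higher in NHC, against 42.1% of all tested genes, and 3 did not pass. Pcna scored 32.3, 31.6 and 34.96 in control HC and 85.4, 65.01 and 68.6 in control NHC (log2 difference 1.14, standard error 0.15, limma adjusted p = 3.52e-05). Within the loader, Rfc3 differed by 1.64 on the log2 scale and Rfc1, its large subunit, by 0.27 (adjusted p = 0.0195). Rfc2 (0.26, adjusted p = 0.0667) and Rfc5 (0.37, adjusted p = 0.0536) did not pass although their replicates did not overlap. These genes also serve DNA repair, as does Rpa1. Rpa1 scored 78.6, 70.7 and 72.4 in control HC and 82.2, 63.2 and 56.8 in control NHC (log2 difference -0.15, standard error 0.19, adjusted p = 0.495), and here the groups overlapped.

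RNA of other cells in the HC samples bears on the low genes. At the share from all 3 lists, the RNA expected from other cells was above 50% of the measured level for 6 genes, Mcm3, Mcm5, Mcm10, Orc1, Gins1 and Gins2, as a median over the 3 control HC replicates, and it reached 186% for Mcm10. Other cells cannot supply more than the whole measured level, so the estimate was too high for Mcm10 and may be for other genes. It was under 20% for 24 genes, and lowest for Cdc6 at 2.77%. By the mesenchyme list alone 3 genes were above 50%, by the endothelium list 12 and by the Schwann cell list 34, so these counts depend on the list. With the RNA of the 3-list estimate subtracted, 37 genes were higher in NHC and 2 were lower. This subtraction lowers HC levels only, so it can only widen an excess in NHC, and the 37 are no check of it.

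Per kilobase of exon, the subunits of the Mcm ring lay further apart in HC than in NHC. The score above 1 per kb of the GENCODE exons ranged from 0.945 for Mcm5 to 8.35 for Mcm7 in control HC, a ratio of 8.83, and from 7.11 to 16.9 for these genes in control NHC, a ratio of 2.37. Within single replicates the ratio of the highest to the lowest subunit was 8.22–9.50 in control HC and 2.20–2.47 in control NHC, so that the ranges did not overlap. Levels of Mcm7 carry an uncertainty of their own, as 13% of its exonic bases are shared with Ap4m1 and Cops6 on the other strand. Orc2 to Orc6 spanned levels from 7.45 to 31.5 per kb in control HC and from 7.29 to 29.1 per kb in control NHC. Orc1 was at 0.0779 per kb in control HC and 0.942 in control NHC. The most abundant of the 43 genes per kb was Orc3 in control HC and Pcna, at 47.4, in control NHC.

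**Figure D2:**
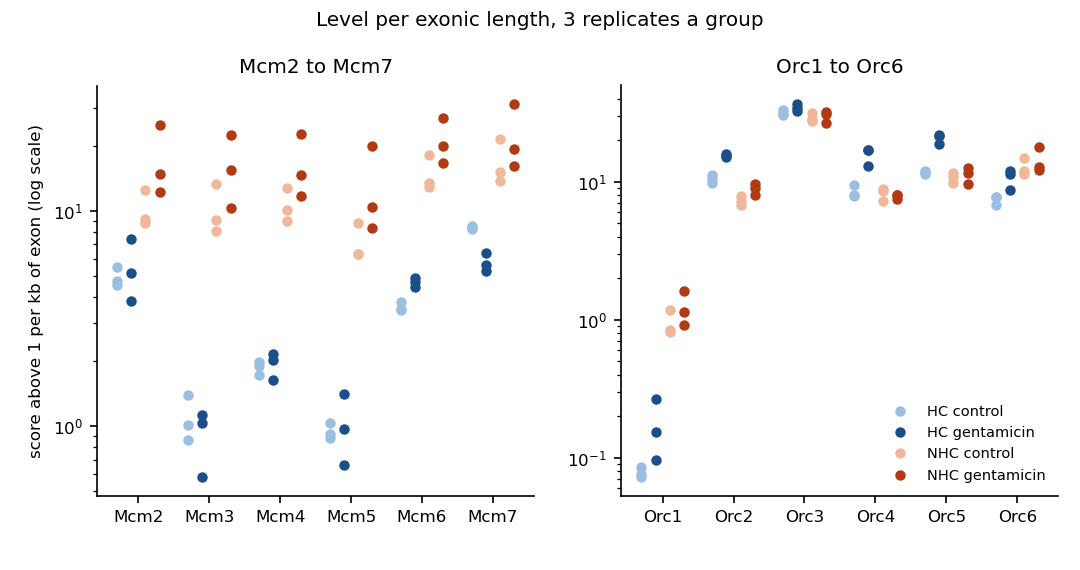
Score above 1 per kb of exon (log axis) of Mcm2 to Mcm7 on the left and Orc1 to Orc6 on the right, each point 1 replicate, in the 4 groups. Mcm subunits span a ratio of 8.83 between group means in control HC and of 2.37 in control NHC, and Orc1 sits below Orc2 to Orc6 in every group.

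In hair cells, 3 subunits of the origin recognition complex rose after gentamicin, while most other replication genes did not pass the test. Orc4 rose 1.82-fold, Orc5 1.73-fold, Orc2 1.45-fold and Rfc1 1.27-fold, and Pola2 fell 1.63-fold. These 5 genes passed the threshold for drug effects, a fold change over 1.2 at an unadjusted limma p under 0.01, and 38 of the 43 did not. They are 11.6% of the 43, against 27.5% of all tested genes, with 12.7% of the tested genes higher and 14.8% lower. The median log2 difference was 0.38 for origin recognition and loading and between -0.12 and 0.06 for the other roles. Over the 43 genes it was 0.05, against -0.09 over all genes, and 26 of the 43 were above 0, or 60.5%, against 40.1%. Scaling by total reads turned the balance over all genes from 2037 higher and 2381 lower to 2774 higher and 1591 lower, and subtracting RNA of other cells to 2527 and 1581. The replication genes had 5 higher and 1 lower in the former and 6 higher and 1 lower in the latter.

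Orc4 had the smallest p of the 43 genes. Its score was 38.04, 38.9 and 45.5 in control HC and 80.4, 80.5 and 62.5 in treated HC, or 40.8 ± 4.10 against 74.5 ± 10.4 (SD, n = 3), and its adjusted p by limma was 3.53e-04 (log2 difference 0.86, standard error 0.12). All treated replicates were above all controls. Orc5 was at 26.2, 24.8 and 25.8 in control HC and 46.5, 46.1 and 40.3 in treated HC (log2 difference 0.79, standard error 0.11, adjusted p = 3.66e-04). Orc2 was at 41.04, 35.8 and 39.02 in control HC and 57.03, 56.3 and 54.5 in treated HC (log2 difference 0.54, standard error 0.09, adjusted p = 0.00126). For both genes the treated replicates were again above every control. Orc6 was at 13.4, 13.4 and 11.8 in control HC and 19.2, 20.04 and 14.97 in treated HC without overlap but missed the unadjusted p threshold of 0.01 (log2 difference 0.48, standard error 0.16, limma adjusted p = 0.0444). Orc3, the subunit with the highest level, was at 72.4, 70.6 and 77.2 in control HC and 84.8, 79.5 and 75.3 in treated HC (log2 difference 0.12, standard error 0.08, adjusted p = 0.287), and here treated and control replicates overlapped. Orc1 was at 1.22, 1.26 and 1.23 in control HC and 1.29, 1.795 and 1.46 in treated HC (log2 difference 0.28, standard error 0.18, adjusted p = 0.246), on few reads in all 6 replicates.

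The positions of these genes were checked for neighbours, because the strand of a read is not known here. Orc2 (chr1:58462771-58505109 on mm10, minus strand) shares 24.0% of its exonic bases with Nif3l1, whose log2 difference in HC was 0.13 (adjusted p = 0.372). Orc4 (chr2:48902824-48950277, minus strand) shares 9.5% with Acvr2a, whose log2 difference was 0.35 (adjusted p = 0.216). Orc5 (chr5:22486485-22550429, minus strand) shares 4.3% with Gm15421 on the same strand, with a log2 difference of 0.20 (adjusted p = 0.369). None of these 3 neighbours passed in HC. Gm15421 had mean scores of only 1.71 in control and 1.97 in treated HC, and Acvr2a had a standard error of 0.21. The part of shared reads in the values of Orc2, Orc4 and Orc5 was not tested. Orc6 shares 7.1% with Vps35, which rose by 0.29 on the log2 scale (adjusted p = 0.00885). Rfc1 and Pola2 share no exonic base with another gene in GENCODE.

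Rfc1 and Pola2 changed in opposite directions. Rfc1, the large subunit of the clamp loader, was at 60.4, 61.4 and 56.2 in control HC and 72.98, 77.3 and 75.3 in treated HC (log2 difference 0.34, standard error 0.09, limma adjusted p = 0.0156). All its treated replicates were above the controls, but the call was lost without control replicate 3 and without treated replicate 2, and over the alternatives its adjusted p ranged from 0.0033 to 0.0576. Pola2, the regulatory subunit of polymerase alpha and primase, was at 17.02, 18.6 and 17.4 in control HC and 10.4, 12.3 and 10.03 in treated HC (log2 difference -0.70, standard error 0.15, adjusted p = 0.00473). Every treated replicate of Pola2 was below every control.

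Replicates did not overlap for 9 genes that were higher in treated HC and 7 that were lower, or 20.9% and 16.3% of the 43, against 21.7% and 33.1% of all genes tested and 54.8% in either direction. The helicase contributed 4 of these, although 0 of its 12 genes passed by limma and 1 had an unadjusted p under 0.05 in the higher and 2 in the lower direction, or 25% of them against 44.2% of all genes. Mcm7 was at 25.8, 26.1 and 25.4 in control HC and 16.6, 17.6 and 19.9 in treated HC (log2 difference -0.52, standard error 0.22, limma adjusted p = 0.0861). Mcm6 lay in the other direction, at 16.1, 17.5 and 16.3 in control HC and 21.5, 20.5 and 22.3 in treated HC (log2 difference 0.37, standard error 0.16, adjusted p = 0.104). Gins3 (-0.27 on the log2 scale, adjusted p = 0.333) and Gins4 (-0.31, adjusted p = 0.0893) had their treated replicates below the controls. Tk1, the salvage kinase for thymidine, was at 2.52, 2.51 and 2.65 in control HC and 1.62, 2.17 and 1.82 in treated HC (log2 difference -0.46, standard error 0.22, adjusted p = 0.12), again without overlap.

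Among the other roles, Cdc6 was at 14.3, 11.8 and 11.97 in control HC and 15.1, 20.7 and 11.1 in treated HC (log2 difference 0.26, standard error 0.25, limma adjusted p = 0.463). Its loading partner Cdt1 was at 3.08, 4.38 and 2.66 in control HC and 2.24, 2.21 and 2.71 in treated HC (log2 difference -0.47, standard error 0.24, adjusted p = 0.149). In both genes the groups overlapped. Pcna was at 32.3, 31.6 and 34.96 in control HC and 40.7, 36.9 and 39.7 in treated HC (log2 difference 0.25, standard error 0.15, adjusted p = 0.238), with all treated values above the controls. Pold1, the catalytic subunit of polymerase delta, was at 13.2, 16.1 and 14.1 in control HC and 12.1, 10.5 and 11.3 in treated HC (log2 difference -0.36, standard error 0.18, adjusted p = 0.153), with all treated values below them. Lig1 was at 14.8, 18.5 and 18.5 in control HC and 12.8, 15.3 and 11.5 in treated HC (log2 difference -0.39, standard error 0.19, adjusted p = 0.14), and its groups overlapped.

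The number of changed genes depended on which replicates entered the estimate of the spread. With the HC groups fitted alone, 9 genes passed, as Mcm6 and Orc6 joined the genes that rose and Mcm7 and Tk1 joined Pola2, and 31.5% of all genes passed. Without treated NHC replicate 2 in the common fit, an alternative chosen after seeing the data, 8 genes passed, Mcm7, Tk1 and Orc6 among them, with 29.6% of all genes. Orc2, Orc4, Orc5 and Pola2 passed in both fits and under all 16 alternatives of scaling, filter, model and replicates, while a fold threshold of 1.5 left Orc4, Orc5 and Pola2.

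Summed markers of some cell types, but not of all, were lower in the treated HC samples. Mesenchyme markers summed to 293, 630 and 338 score units in the control replicates and to 195, 196 and 239 in the treated ones, with all 10 above 3 reads in every HC replicate. Supporting cell markers summed to 2047, 2124 and 2493 against 1408, 944 and 1716, again with all 10 detected. Both sums were lower in all treated replicates than in all controls. So were the hair cell markers, at 12626, 12215 and 12568 in control against 10180, 11303 and 10972. The Schwann cell sums were also lower, at 231, 286 and 240 against 175, 119 and 195. The endothelium sums overlapped, at 45.8, 57.1 and 38.2 in control against 31.0, 39.6 and 29.0. Neuron sums overlapped as well, at 1237, 1314 and 1157 against 1120, 1133 and 1255. Macrophage sums were at 4.7, 4.3 and 3.4 against 4.2, 4.8 and 6.0. Such sums weigh abundant genes most. By limma 0 of the 10 hair cell markers passed in HC, with a median log2 difference of -0.05 against -0.09 over all genes. The medians were -0.90 for mesenchyme, -0.79 for supporting cell and -0.47 for Schwann cell markers. There 6 of 10, 3 of 10 and 3 of 7 passed, all lower, against 14.8% of all genes lower. For endothelium, neuron and macrophage markers the medians were -0.64, -0.37 and 0.06. Of these, 1 of 8, 1 of 7 and 0 of 7 passed, none of them higher. With RNA of other cells subtracted at the 3-list estimate, the log2 differences were 0.59 for Orc2, 0.95 for Orc4, 0.87 for Orc5, 0.43 for Rfc1 and -0.67 for Pola2, and all 5 passed, together with Mcm6 and Orc6. Subtraction at the estimate of a single list was not run, and the part of supporting cells in the result was not tested.

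**Figure D3:**
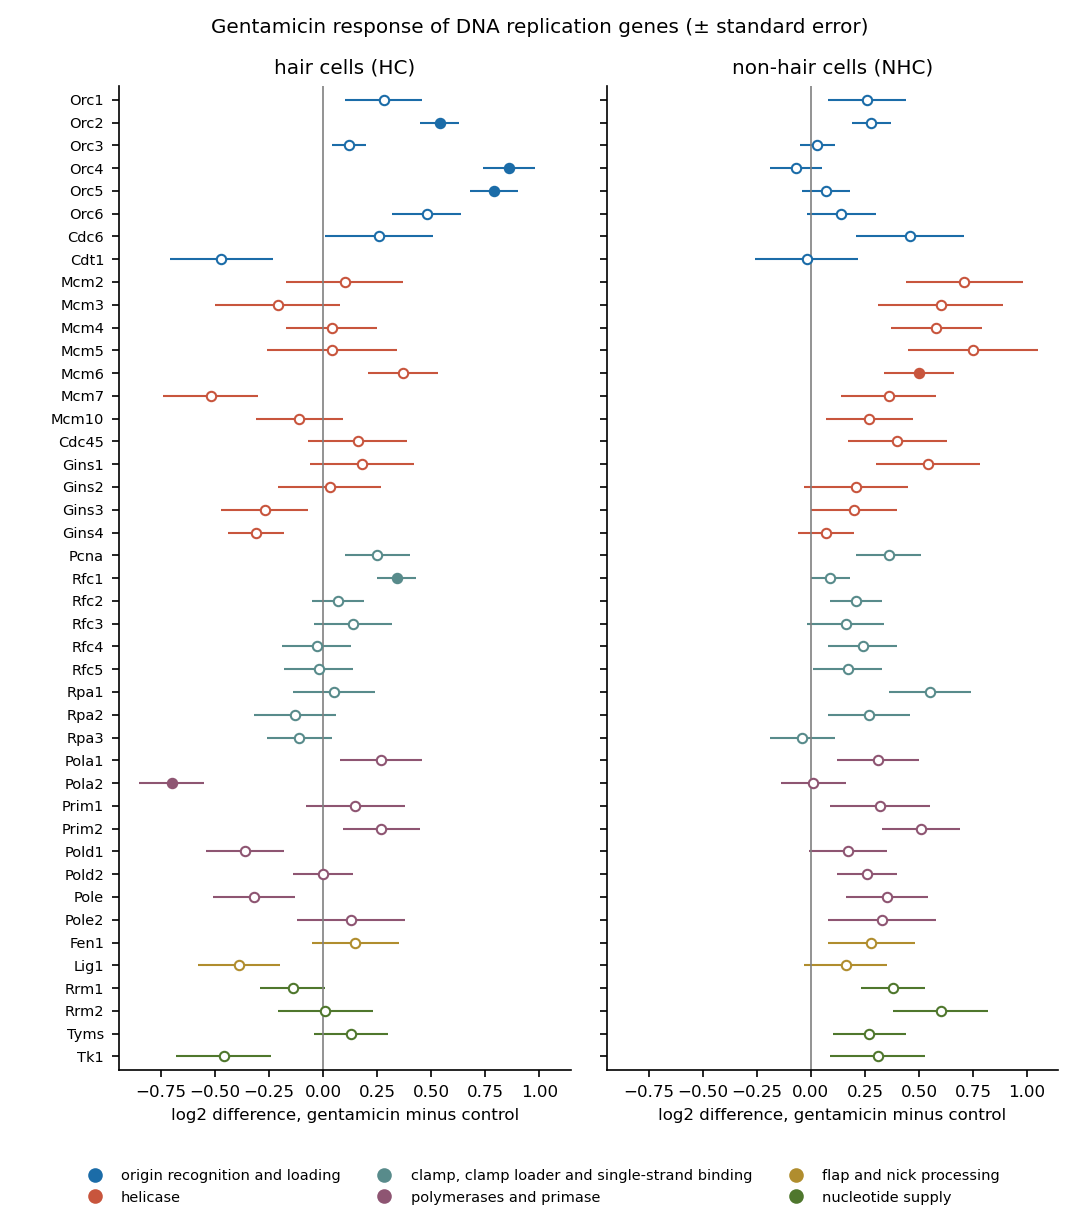
Log2 difference between gentamicin and control for the 43 genes in HC (left) and NHC (right), with its standard error (limma, 3 replicates a group), coloured by role. Filled points passed an unadjusted p of 0.01 with a fold above 1.2: Orc2, Orc4, Orc5, Rfc1 and Pola2 in HC and Mcm6 in NHC.

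**Figure D4:**
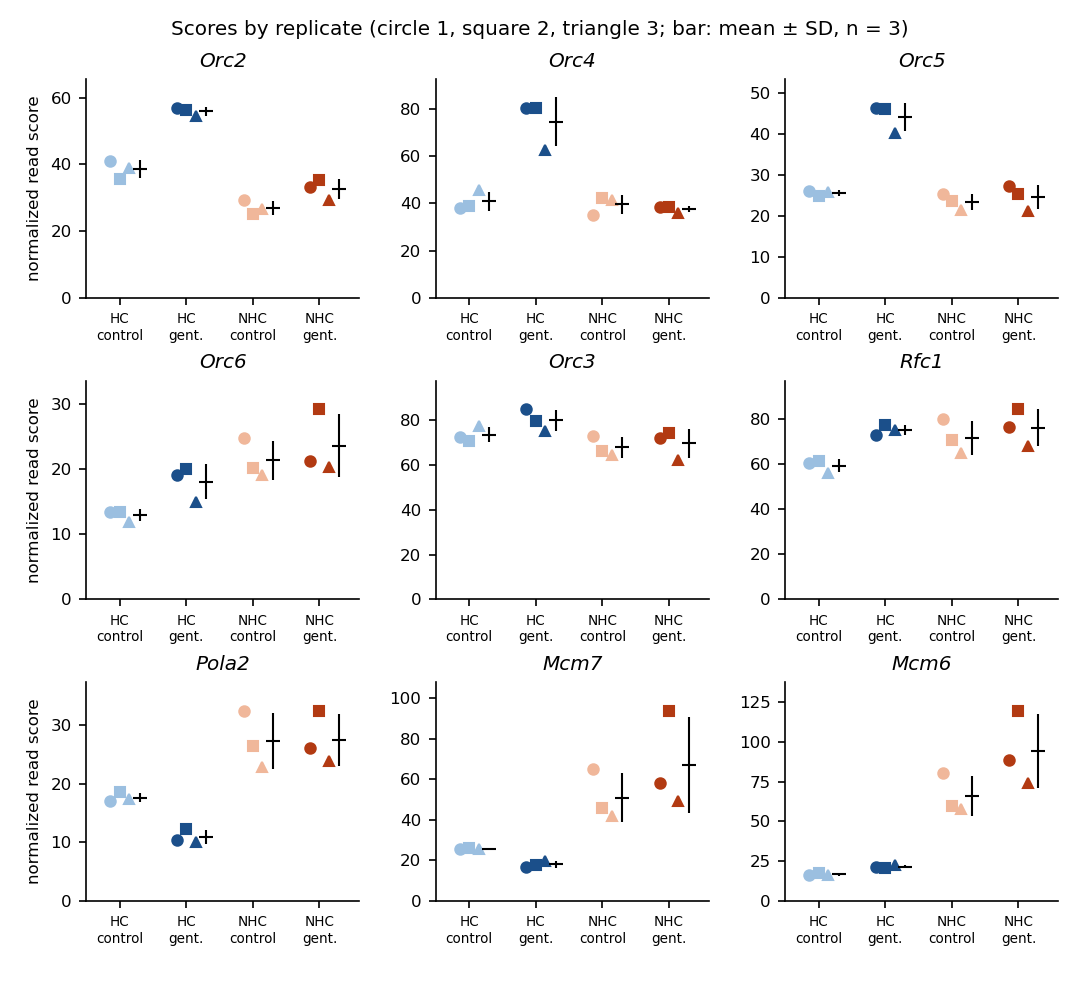
Normalized read score of 9 genes in the 4 groups, each symbol a replicate and each bar the mean ± SD of 3 replicates. In Orc2, Orc4, Orc5 and Rfc1 all treated HC replicates sit above the control HC replicates, in Pola2 and Mcm7 below, and treated NHC replicate 2 (square) is the highest NHC value of Mcm6 and Mcm7.

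In non-hair cells, 1 of the 43 genes passed after gentamicin, Mcm6, which rose 1.42-fold. This is 2.33% of the genes, against 5.44% of all tested genes, or 512 higher and 364 lower (633 and 283 with scaling by total reads). Mcm6 scored 80.2, 59.7 and 57.7 in control NHC and 88.9, 119.5 and 74.3 in treated NHC (log2 difference 0.50, standard error 0.16, limma adjusted p = 0.163). The groups overlapped, as control replicate 1 was above treated replicate 3, and the call held in 5 of 15 alternatives. The 43 genes as a whole lay higher in treated NHC, with a median log2 difference of 0.27 against -0.01 over all genes and 40 of 43 above 0, or 93% against 48.8%. By role the median ran from 0.10 for origin recognition and loading to 0.45 for the helicase. Without treated replicate 2 the medians of these roles were 0.01 and 0.20. Replicates did not overlap for 3 genes, Orc2, Prim2 and Rrm2, all higher in treated NHC, or 6.98% against 10.1% of all genes in that direction, 7.68% in the lower direction and 17.7% in either.

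The values were highest in treated replicate 2. It was the highest treated replicate for 41 of the 43 genes and the highest of all 6 NHC replicates for 39, and it was above every control for 39 genes, against 35.5% of all tested genes. Mcm5 scored 31.2, 22.7 and 22.7 in control NHC and 36.99, 70.4 and 29.6 in treated NHC (log2 difference 0.75, standard error 0.30, limma adjusted p = 0.229). Mcm2 scored 43.1, 30.6 and 32.01 in control NHC and 50.8, 85.8 and 42.4 in treated NHC (log2 difference 0.71, standard error 0.27, adjusted p = 0.217). In both genes treated replicate 2 was far above the other treated replicates, and treated replicate 3 was below control replicate 1. Rrm2 was at 18.4, 15.2 and 15.98 in control NHC and 21.7, 38.7 and 18.6 in treated NHC (log2 difference 0.60, standard error 0.22, adjusted p = 0.208). Rpa1 was at 82.2, 63.2 and 56.8 in control NHC and 93.8, 136.4 and 72.9 in treated NHC (log2 difference 0.55, standard error 0.19, adjusted p = 0.185). Against the mean of the controls, the median log2 deviation of the 43 genes was 0.21, 0.72 and -0.03 in treated replicates 1, 2 and 3, while that of all tested genes was 0.00, 0.00 and -0.01.

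The NHC controls also differed among themselves in these genes. Control replicate 1 was the highest control for 41 of the 43 genes, with a median log2 deviation of 0.22, against -0.11 and -0.14 in control replicates 2 and 3. Treated replicate 3 was the lowest treated replicate for 41 genes. The replication genes shifted together from replicate to replicate in NHC, and their shifts within a condition were as large as the difference between conditions. In HC the same median lay between -0.03 and 0.07 in all 6 replicates.

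**Figure D5:**
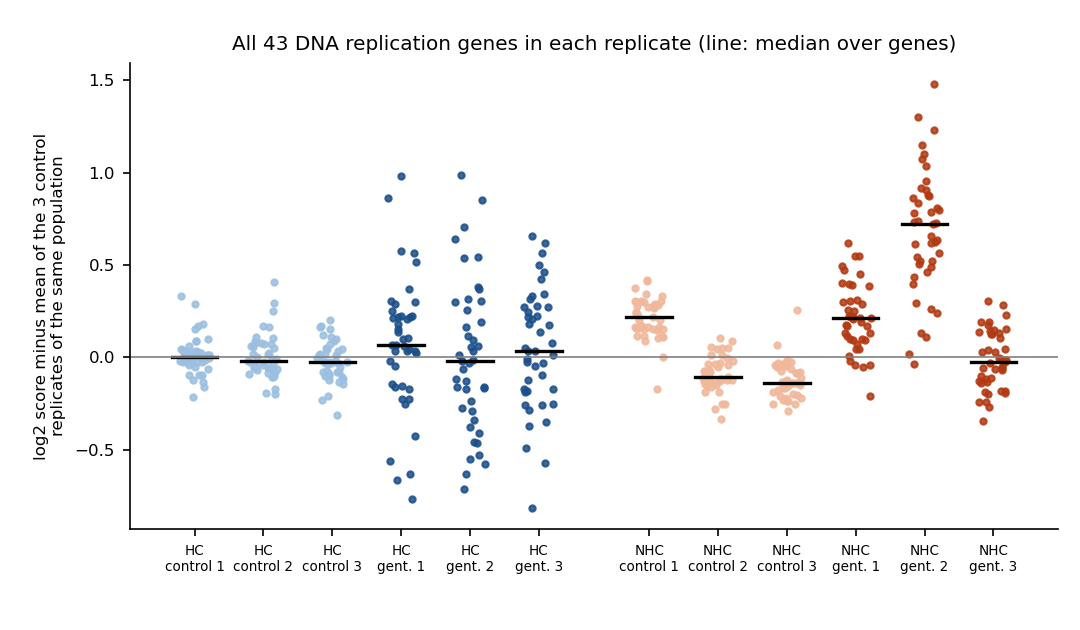
Log2 score of each of the 43 genes in each replicate, minus the mean log2 score of the 3 control replicates of the same population, with the median over genes as a line. HC replicates have medians between -0.03 and 0.07, while treated NHC replicate 2 has a median of 0.72.

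Without treated replicate 2, the median log2 difference was 0.09 and 30 of 43 genes were above 0, or 69.8% against 48.7% of all genes. Then 0 of the 43 passed by limma, against 2.85% of all genes, and 2 had an unadjusted p under 0.05, or 4.65% against 10% of all genes. Without treated replicate 3, 10 genes passed, all higher, and these were Mcm2, Mcm3, Mcm4, Mcm5, Mcm6, Orc2, Pcna, Rpa1, Rrm1 and Rrm2, while 9.76% of all genes passed. Without control replicate 1, Mcm6, Orc2, Gins1 and Rpa1 passed, with 8.50% of all genes. With the NHC groups fitted alone, 0 of the 43 passed by limma, against 2.38% of all genes, and 4 had an unadjusted p under 0.05, or 9.30% against 11.1%.

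Markers of cell types varied between the same NHC replicates. In replicates 1, 2 and 3 of treated NHC, the mitosis list, with Mki67 and Cdk1 among its 20 genes, summed to 468, 779 and 435 score units, against 491, 536 and 475 in control. Mesenchyme markers summed to 9168, 11262 and 7648 against 8432, 8487 and 6796. Supporting cell markers summed to 1379, 835 and 1951 against 1240, 1576 and 2390, and neuron markers to 652, 351 and 1120 against 632, 1514 and 1429. Replicate 2 of the treated NHC was the highest of the 6 in mitosis and mesenchyme genes and the lowest in supporting cell and neuron genes. All genes of these 4 lists were above 3 reads in every NHC replicate, and the part of this makeup in the replication genes was not tested.

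The response to gentamicin differed between the populations for 3 of the 43 genes at an adjusted p under 0.05, or 6.98%, against 13.4% of all tested genes. Over all genes, 1102 of these differences (6.85%) were positive and 1056 (6.56%) negative, which became 1500 and 716 with scaling by total reads and 1340 and 668 with RNA of other cells subtracted. For Orc4 the log2 difference was 0.86 in HC and -0.07 in NHC, where the scores were 35.1, 42.5 and 41.3 in control NHC and 38.3, 38.5 and 36.1 in treated NHC. The difference of the responses was 0.93 (standard error 0.16, limma adjusted p = 0.00599). Orc5 differed by 0.72 (standard error 0.15, adjusted p = 0.0117), with NHC scores of 25.3, 23.6 and 21.4 in control NHC and 27.3, 25.3 and 21.3 in treated NHC. For both subunits the NHC groups overlapped. Of the genes that share exonic bases with them, Acvr2a (Orc4) had a difference of the responses of 0.63 (adjusted p = 0.173). Gm15421 (Orc5) had one of 0.34 (adjusted p = 0.353). Pola2 had a lower response in HC, with a difference of -0.71 (standard error 0.21, adjusted p = 0.0466) and NHC scores of 32.5, 26.5 and 22.96 in control NHC and 26.1, 32.5 and 23.9 in treated NHC. The tests of Orc4 and Orc5 passed under all 21 alternatives of scaling, filter, model and replicates, that of Pola2 under 8. Without treated NHC replicate 2, Orc4 and Orc5 passed, with 10.7% of all genes. Orc2, which passed in HC and not in NHC, had a difference of 0.26 (adjusted p = 0.192) and Rfc1 one of 0.26 (adjusted p = 0.212), so that a different response of these genes was not shown. Mcm7 had the most negative difference of the 43, -0.88, which did not pass (adjusted p = 0.0778). Of the genes that share exonic bases with Mcm7, Cops6 had a difference of -0.50 that passed (adjusted p = 0.0373). Ap4m1 had one of -0.07 (adjusted p = 0.86). The part of shared reads in these differences was not tested.

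Genes with and without an E2F-like promoter match overlapped in every comparison. Among the 36 genes with a window, the median log2 difference between control NHC and control HC was 1.52 for the 14 with a match, from -1.24 for Cdc6 to 2.86 for Mcm3, and 0.95 for the 22 without. After gentamicin the medians were 0.08 and 0.07 in HC and 0.29 and 0.27 in NHC, or 0.08 and 0.05 in NHC without treated replicate 2. Of the 4 genes that rose in treated HC, 0 had a match, while Mcm6, the gene called in treated NHC, had one. The Mcm6 call held in 5 of 15 alternatives. Without a minimum of reads, and also with trimmed mean (TMM) scaling, the gene called in NHC was Orc2, which has no match. These medians describe the genes and were not tested.

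Accessory replication genes outside the 43, such as licensing regulators and fork protection factors, were also mostly higher in control NHC. There 27 of 36 were higher and 7 lower, against 42.1% of all tested genes higher and 31.9% lower. After gentamicin in HC, 1 of the 36 rose and 3 fell, with a median log2 difference of 0.05, against 12.7% of all genes higher and 14.8% lower. Mcm9, a helicase paralog that acts in repair, rose from 28.7 ± 2.76 to 36.9 ± 1.98 (SD, n = 3), with a limma adjusted p of 0.0134 (log2 difference 0.37, standard error 0.10). Chtf8, a subunit of an alternative clamp loader, fell from 169.7 ± 9.04 to 104.8 ± 12.7 (log2 difference -0.70, standard error 0.10, adjusted p = 6.45e-04). Gmnn, the inhibitor of Cdt1, fell from 4.55 ± 0.576 to 2.92 ± 0.431 (log2 difference -0.64, standard error 0.15, adjusted p = 0.00886), and Rnaseh2c, a subunit of a ribonuclease that removes RNA from DNA, fell by 0.48 on the log2 scale. In NHC 0 of the 36 passed by limma, and 7 had an unadjusted p under 0.05, or 19.4% against 17.1% of all genes. Without treated replicate 2, 1 of them did, and the median of 0.16 became 0.02.

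Of 30 further genes of nucleotide synthesis and salvage, 6 rose and 0 fell in treated NHC, against 3.18% of all genes higher and 2.26% lower, and 0 had an unadjusted p under 0.05 in the lower direction. Cad, which starts pyrimidine synthesis, scored 72.7, 63.9 and 69.2 in control NHC and 114.6, 137.3 and 101.3 in treated NHC (log2 difference 0.77, standard error 0.11, limma adjusted p = 0.0301). The treated replicates of Cad were all above the controls. The purine synthesis genes Atic (0.42 on the log2 scale, adjusted p = 0.0327) and Gart (0.46, adjusted p = 0.0466) and the kinase gene Nme1 (0.43, adjusted p = 0.0652) rose as well. Without treated replicate 2, 5 of the 30 rose. In HC 4 of the 30 passed, against 27.5% of all genes. There 2 rose, Adss (0.53, adjusted p = 0.00219) and Adsl (0.32, adjusted p = 0.033), and 2 fell, Uck2 (-0.56, adjusted p = 0.00163) and Paics (-0.28, adjusted p = 0.0166). Of these, all but the uridine kinase Uck2 act in purine synthesis.

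Among 27 regulators of S phase entry, 2 rose and 5 fell in treated HC, against 12.7% of all genes higher and 14.8% lower. In NHC 0 passed by limma and 4 had an unadjusted p under 0.05, or 14.8% against 17.1% of all genes, and 1 without treated replicate 2. E2f6, a repressor of the E2F family, rose from 29.4 ± 1.18 to 38.4 ± 0.613 (SD, n = 3), with a limma adjusted p of 0.00131 (log2 difference 0.38, standard error 0.06). Cdkn1c, an inhibitor of cyclin-dependent kinases, fell from 204.4 ± 20.8 to 90.9 ± 30.4 (log2 difference -1.22, standard error 0.22, adjusted p = 0.00198). E2f5 (-0.42, adjusted p = 0.00634) and Tfdp2 (-0.39, adjusted p = 0.00845), a partner of E2F proteins, fell as well. Of 20 mitosis genes, all 20 were higher in control NHC than in control HC, against 42.1% of all tested genes, with a median log2 difference of 2.87. In treated HC 2 of the 20 passed, both higher and both from low levels, against 12.7% of all genes higher and 14.8% lower. Ccnb2 rose from 1.85 ± 0.0254 to 4.05 ± 0.668 (log2 difference 1.12, standard error 0.24, adjusted p = 0.00475). Aurka rose from 2.96 ± 0.229 to 4.48 ± 0.172 (log2 difference 0.60, standard error 0.19, adjusted p = 0.0291). The median of the 20 was -0.23 against -0.09 over all genes.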

How the data were processed

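RNA of sorted cochlear cells was sequenced as 50 bp single-end reads on 4 samples with 3 replicate columns each. The authors trimmed reads at both ends to a quality of at least 25 and aligned them to mm10 with TopHat2 in PartekFlow. The gene counter, the annotation and the tool versions are not given in the sources used here. The deposited normalized values are scores made by the authors. They have a lowest value of 1, which marks no read, and low values rise in steps of similar size for genes of any length. Although the methods speak of RPKM, the scores were therefore read as reads scaled per replicate plus 1, without division by length. Of the values under 20 reads, 79.6–81.0% were whole to within 0.05 reads, so no count test was run. Whether reads were counted by strand is not known here. No deposited column holds a comparison of the authors.

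Groups and replicates came from the labels and column names. On log2 scores, limma 3.58.1 with a variance trend (R 4.3.3) fitted the 4 groups in 1 model over the 16090 genes with at least 100 reads over the 12 replicates. The offset of 1 reduces the log2 differences of low genes. Gentamicin effects were called where the fold exceeded 1.2 and the unadjusted p was below 0.01, and population differences and differences of response at a Benjamini-Hochberg adjusted p under 0.05. Tables and figures were made with Python 3.11.15, pandas 2.3.3, numpy 2.4.6 and matplotlib 3.10.9, and the fit was tested on simulated data. Exon lengths and overlaps came from GENCODE on mm10, and promoter windows from RefSeq on GRCm38.p6. The share of RNA from other cells in each HC replicate was estimated from mesenchyme, endothelium and Schwann cell markers, as their level relative to NHC of the same treatment, with the 3 lists pooled although they gave different values. Alternatives covered scaling, offset, filter, model, call rule, subtraction of this RNA, the replicate number as a block and each replicate left out. Leaving treated NHC replicate 2 out of the HC comparisons was chosen after seeing the data.

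Values are given per replicate for genes called in a gentamicin comparison and for the highest members of each role, and for other lists up to 4 called genes with the smallest p. Further genes with values, such as Cdt1, Tk1 and Mcm10, were chosen after their values were seen. The 43 genes and all lists were chosen with earlier results of these data known. Between control HC and control NHC, deviations from the group mean correlated at 0.216, 0.316 and 0.200 for replicates of the same number. Between treated HC and treated NHC these values were 0.377, -0.039 and -0.018. The control samples may thus be paired by number, and the treated ones were not shown to be. The p-values of population and response differences come from the fit without pairing unless an alternative is named. With the replicate number as a block over all 12 replicates, the population count stayed at 37.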

Additional observations from a re-analysis of the deposited data

Results flagged for a closer look

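Response to gentamicin differed between hair cells and non-hair cells by the limma interaction test for 3 genes. For Orc4, whose product is a subunit of the origin recognition complex, the response in HC minus that in NHC was 0.93 on the log2 scale (adjusted p = 0.00599). For Orc5, of the same complex, it was 0.72 (adjusted p = 0.0117). For Pola2, the regulatory subunit of polymerase alpha and primase, it was -0.71 (adjusted p = 0.0466), and over the alternatives its adjusted p ranged from 0.0249 to 0.106. With 3 replicates a group, single replicates were not tested as outliers.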

How the results depend on the processing

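Among the 43 genes, the HC count of 5 became 9 with the HC groups fitted alone, 3 with a fold threshold of 1.5 and 8 without treated NHC replicate 2, and it ranged from 4 to 6 when HC replicates were left out. The NHC count of 1 became 2 with scaling by total reads and 0 with a minimum of 1000 reads, with the groups alone, without the variance trend, with an adjusted p of 0.05 and with a fold of 1.5. It stayed at 1 with trimmed mean (TMM) scaling and with no minimum of reads, but the gene was then Orc2 and not Mcm6. Leaving out NHC replicates gave 0 to 10, with 10 without treated replicate 3 and 4 without control replicate 1. The 3 differences of response ranged from 2 to 7, with 7 without treated NHC replicate 3, where 14.2% of all genes passed. The population count of 37 lay between 35 and 39 under every alternative run.

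Of the accessory genes, the HC count of 4 became 2 at a fold of 1.5, and in NHC 0 to 2 were called with a replicate left out. Of the further nucleotide genes, the HC count of 4 became 7 with scaling by total reads and 0 at a fold of 1.5, and the NHC count of 6 became 3 with an adjusted p of 0.05 and 1 at a fold of 1.5, with a range of 5 to 9 over left-out replicates. Of the S phase regulators, the HC count of 7 became 3 at a fold of 1.5, and in NHC 0 to 2 were called with a replicate left out.

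Over all genes, the HC count of 4418 became 2074 at a fold of 1.5. The NHC count of 876 became 383 with the groups alone, 55 with an adjusted p of 0.05 and 219 at a fold of 1.5, and ranged from 411 without control replicate 2 to 1571 without treated replicate 3, with 1367 without control replicate 1 and 458 without treated replicate 2. The 2158 differences of response became 1359 at a fold of 1.5 and ranged from 1160 to 2377 over left-out replicates. Leaving out a single replicate gave 1374 without HC control 1, 1160 without HC control 2, 1254 without HC gentamicin 2, 1289 without NHC control 2 and 1431 without NHC gentamicin 1.

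No called gene changed sign. Of the genes not called, 11 of 38 changed sign in HC, 13 of 42 in NHC, 13 of 40 in the difference of response and 1 of 6 between populations. For genes called in another comparison, the Orc5 difference in NHC ran from -0.01 (without treated replicate 1) to 0.17 when replicates were left out. That of Pola2 ran from -0.11 (without control replicate 3 or treated replicate 2) to 0.14 and was -0.00 without control replicate 2. The population difference of Orc4 ran from -0.10 to 0.04 (without HC control replicate 3 or NHC control replicate 1) and was 0.07 with RNA of other cells subtracted. The causes were not tested.

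With the replicate block, 6 of the 43 genes passed in HC, as Orc6 joined, 0 in NHC and 3 in the difference of response, while 4620 genes of all passed in HC. Pairing of treated and control samples by number was not shown. Same-number deviations correlated at 0.037 to 0.052 in HC and at 0.208, -0.232 and 0.683 in NHC. Not every sample correlated best with its own number. Deviations from a mean of 3 replicates cannot exclude pairing either. Genes with scores near 1 in HC, such as Orc1 and Mcm10, rest on few reads, so their fold changes are imprecise.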
